A study of Mus musculus with 50 samples.

Results

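RNA-seq of 26 liver tumours from male C3H/He mice was ordered by the level of Mki67, and the 8 tumours with the highest level were set against the 8 with the lowest. The 16 tumours were selected on their measured Mki67 CPM (the gene's count over the sum of the library's counts, on a common scale), so the series of 50 libraries, which also held 23 non-tumour livers, gave 16 chosen tumours and 10 of middle rank. Tumour T1 was not ranked, since its library held kidney transcripts. Tumours came from mice on the American lifestyle diet (ALIOS, a diet high in trans-fat with fructose in the drinking water) or on control diet, some of which also received the liver carcinogen diethylnitrosamine (DEN). Livers and tumours were listed as collected at 48 weeks, DEN tumours included. The paper describes no mice given DEN, so this age could not be checked for them. The dose of DEN was not given in the sources used here. It was also not given whether DEN tumours came from separate mice, so p-values measure the spread between libraries, part of which may be technical.

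Mki67 encodes Ki-67, a chromosome-coating protein that cells make while they cycle and lose when they rest, and it is the standard tissue marker of proliferation. Adult hepatocytes rarely divide, and liver tumours differ in how many of their cells are in cycle. Cycling cells also switch on the replication and mitosis genes, whose promoters are held by the MuvB and E2F repressor complexes in resting cells. Genes off a list of cell cycle genes are described here in more detail.

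In the high side, Mki67 ran from 19.7 to 58.4 CPM with a median of 29.7 CPM, which came from 591 to 2033 counts per library. In the low side it ran from 5.63 to 9.30 CPM with a median of 8.36 CPM, from 141 to 301 counts. The tumours next to the boundaries were T14 at 19.2 CPM, just under T8 at 19.7 CPM, and T6 at 9.56 CPM, just over T9 at 9.30 CPM. The 10 middle tumours thus filled the gap without a break, and the sides are the ends of a range rather than separate classes. In non-tumour livers Mki67 lay between 0.456 and 10.4 CPM, with a median of 1.56 CPM in 11 livers on ALIOS and 0.895 CPM in 12 on control diet. Library totals were 30004441 to 45751398 counts in the high side and 23798251 to 34651880 in the low side, and the kidney markers that set T1 apart at 48660 CPM summed to 0.699 to 25.1 CPM in the 16 tumours.

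**Figure D1:**
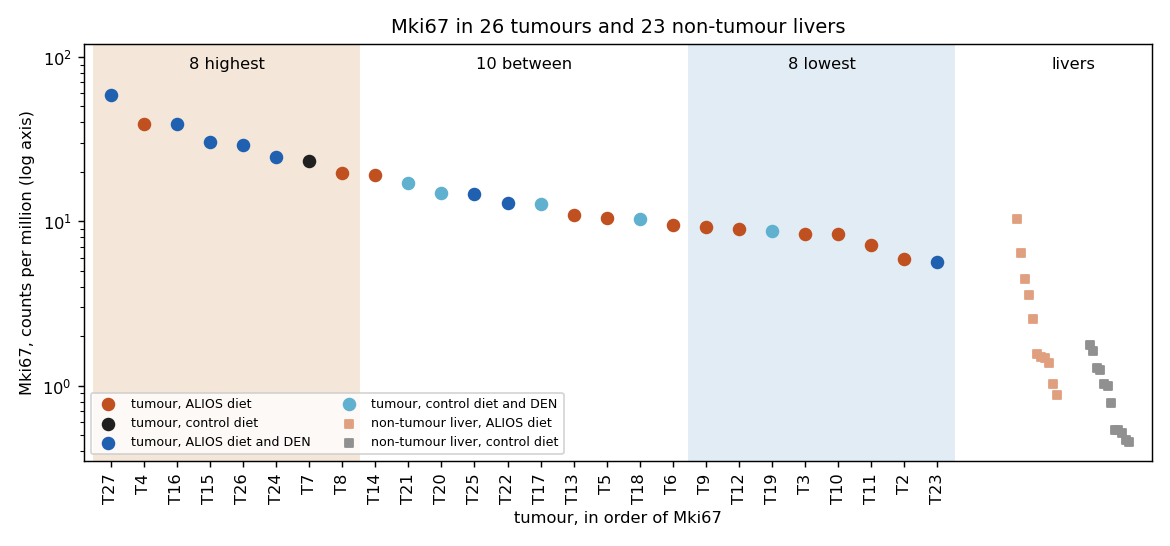
Mki67 in CPM (log axis) in each of 26 tumours in order of rank, with 23 non-tumour livers beside them and points coloured by diet and DEN. The high side spans 19.7 to 58.4 CPM and the low side 5.63 to 9.30 CPM, with 10 tumours between them.

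The sides differed in DEN but not in diet. Of the 8 high tumours, 5 came from mice given DEN on ALIOS (T15, T16, T24, T26 and T27), 2 were spontaneous tumours on ALIOS (T4 and T8) and 1 was the lone spontaneous tumour on control diet (T7). Of the 8 low tumours, 6 were spontaneous tumours on ALIOS (T2, T3, T9, T10, T11 and T12), 1 was a DEN tumour on ALIOS (T23) and 1 a DEN tumour on control diet (T19). Each side had 7 tumours on ALIOS and 1 on control diet. DEN and the Mki67 split therefore overlapped in part. For several genes and lists the difference is also given within tumours without DEN (3 high against 6 low) and with DEN (5 against 2, the 2 being T23 and T19).

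By the labelled groups, Mki67 spread widely inside each. In 8 DEN tumours on ALIOS it ran from 5.63 to 58.4 CPM with a median of 26.8 CPM, and in 12 spontaneous tumours on ALIOS from 5.92 to 39.0 CPM with a median of 9.43 CPM. The ranges overlapped, and the mean log2 CPM was 4.45 ± 1.06 (SD, n = 8) with DEN and 3.49 ± 0.76 (n = 12) without, a difference of 0.96 (two-sided exact permutation p = 0.0326, adjusted p = 0.0653 over 2 tests). With 1 tumour left out, each p of either test was adjusted against the other test's p with all tumours kept. The difference was then 0.76 to 1.24, and the adjusted exact permutation p ran from 0.0107 to 0.132. It was under 0.05 only without T23, the one DEN tumour on ALIOS in the low side (0.0107), or T4, the highest spontaneous tumour (0.0185), each of which goes against the difference. Without T2, T15, T16, T24, T26 or T27 the exact permutation p was above 0.05 even before adjustment, up to 0.0767 without T27. The 5 DEN tumours on control diet lay between 8.76 and 17.05 CPM, with a mean log2 CPM of 3.63 ± 0.39. They differed from the DEN tumours on ALIOS by 0.82 (exact permutation p = 0.132, adjusted p = 0.132). Without T23, whose value goes against the difference, the exact permutation p was 0.0177 and the adjusted p 0.0326. With any other tumour left out the adjusted p was 0.106 (T22) to 0.255 (T19).

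Promoters of cell cycle genes are known for a few short motifs that the repressor complexes and their activating partners bind. The sequences of Mki67 and of the only genes outside the cell cycle list that kept the sides fully apart, Ankle1 and Efcab11, are shown to place them beside each other. They are the 250 bases before the RefSeq gene start in GRCm38.p6, 5′ to 3′ on the gene's strand, at chr7:135716380-135716629 (minus strand), chr8:71405762-71406011 (plus strand) and chr12:99883443-99883692 (minus strand). Capitals mark the CHR element (TTTGAA, the binding site of MuvB) and the CCAAT box (CCAAT), each searched on both strands.
Mki67: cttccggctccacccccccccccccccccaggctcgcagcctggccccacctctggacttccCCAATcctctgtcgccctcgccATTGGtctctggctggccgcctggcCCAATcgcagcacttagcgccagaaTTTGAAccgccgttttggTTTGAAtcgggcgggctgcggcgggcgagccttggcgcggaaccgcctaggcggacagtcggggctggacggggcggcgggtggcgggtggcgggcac
Ankle1: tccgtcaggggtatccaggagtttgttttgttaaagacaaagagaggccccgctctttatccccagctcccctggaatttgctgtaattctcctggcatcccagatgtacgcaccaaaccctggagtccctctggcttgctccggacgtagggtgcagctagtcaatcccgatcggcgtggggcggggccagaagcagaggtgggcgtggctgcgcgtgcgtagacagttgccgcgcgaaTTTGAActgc
Efcab11: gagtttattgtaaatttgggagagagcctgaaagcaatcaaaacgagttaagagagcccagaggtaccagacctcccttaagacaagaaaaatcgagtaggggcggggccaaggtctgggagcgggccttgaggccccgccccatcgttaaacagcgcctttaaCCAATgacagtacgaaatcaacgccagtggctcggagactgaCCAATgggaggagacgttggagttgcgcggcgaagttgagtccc

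The Mki67 window held 2 CHR matches and 3 CCAAT boxes, that of Ankle1 held 1 CHR match and that of Efcab11 held 2 CCAAT boxes. Of the 39 cell cycle genes that separated the sides, described next, 28 had a promoter in the table, with 29 windows. CHR stood in 41.4% of these windows, against 11.2% of the 13718 windows of genes that passed the filter on low counts and 16% of all 32851 windows. CCAAT stood in 58.6% against 34.8% and 33.8%, and both together in 24.1% against 4.15% and 5.55%. The E2F site (TTTGGCGC or TTTCGCGC) stood in 2 of the 29 windows (6.9%), against 1.14% and 0.654%. These matches describe letters in the windows and not binding. The 39 genes were members of a list of cell cycle genes, Mki67 included, so their shares are not an independent result about the split.

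Nearly all of the genes that kept the sides apart were cell cycle genes, though most cell cycle genes overlapped between the sides. Values per gene are CPM scaled by the trimmed mean of M-values (TMM), and the difference between sides is that of mean log2 CPM, with no test because the sides were chosen on Mki67. Of 15155 genes that passed the filter on low counts, 41 (0.271%) were at least 1 higher on the log2 scale with all 8 high tumours above all 8 low ones, and 39 of them, Mki67 included, were on the list of cell cycle genes. In the opposite direction there was none (0%). Topoisomerase Top2a was at 6.01 to 30.7 CPM in the high side with a median of 11.4, and at 1.59 to 5.25 in the low side with a median of 3.28, a difference of 1.89. Esco2, which joins sister chromatids during replication, was at 1.04 to 8.93 CPM (median 2.56) against 0.119 to 0.705 (median 0.454), the widest difference among the separated genes at 2.61. Over all 452 measured genes of the list the median difference was 0.41, beside -0.00 over all genes, with 123 at least 1 higher, 1 at least 1 lower and 72 below 0. Their summed level was 5521 to 7844 CPM in the high side and 4961 to 5956 CPM in the low side, so the sides overlapped. When the tumours were ranked by Top2a instead, 7 of 8 tumours stayed in the high side and 7 of 8 in the low side.

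Ankle1 and Efcab11 were the only genes off that list that kept the sides apart, and they were named after their values were seen. Ankle1, a LEM-domain endonuclease that cuts DNA bridges late in cell division, lies on chromosome 8 between 71406010 and 71409904. By that function Ankle1 belongs with the cell cycle genes, although the list did not hold it. It was at 0.696 to 2.25 CPM in the high side (median 0.834) and 0.0886 to 0.473 CPM in the low side (median 0.257), so the lowest high tumour, T24, lay above the highest low tumour, T19. The difference was 1.86 (mean log2 CPM 0.01 ± 0.51 against -1.85 ± 0.68, SD, n = 8 each), and it was 1.85 in tumours without DEN and 1.30 in those with DEN. In the middle tumours Ankle1 ran from 0.0951 to 1.25 CPM. Efcab11, which encodes an EF-hand protein, was at 0.301 to 0.996 CPM against 0.0398 to 0.198 CPM, a difference of 1.80. Without T8 the genes off the list that kept the sides apart numbered 8 higher, without T24 also 8, and without T19 they numbered 5. With any 1 tumour left out, at most 2 genes were lower with no overlap. Neither gene was abundant enough in the non-tumour livers to be tested there.

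A wider rule, at least 60 of the 64 high and low pairs in one order, was added after the data were seen. It took in 103 genes higher (0.68%), of which 15 were off the cell cycle list, and 6 lower (0.0396%), all off the list. Of the 15 higher genes, 8 had a promoter sequence, with 9 windows. CHR stood in 2 of these (22.2%) and CCAAT in 5 (55.6%). Ces2c, a liver carboxylesterase, was at 35.9 to 146 CPM (median 68.5) in the high side and 5.29 to 45.9 CPM (median 29.9) in the low side, with 60 of 64 pairs in order and a difference of 1.86. It was lowest in T23 and T2, and without them the difference was 1.34. Neurl1b, a ubiquitin ligase of the Notch pathway, was at 1.09 to 6.47 CPM against 0.435 to 1.12 CPM, with 63 pairs in order and a difference of 1.60. It changed little without T2 and T23 (1.51). The lipid receptor Gpr55 was at 0.686 to 5.42 CPM against 0 to 0.891 CPM. It differed by 1.72 with all 16 tumours and by 0.81 without T2, T23 and T24. Asporin (Aspn), a matrix proteoglycan, was at 0.0899 to 3.12 CPM, highest in T24, against 0.0271 to 0.280 CPM. It differed by 1.92, and by 1.38 without those 3 tumours. Both rest on few counts in the low side. The lactate transporter Slc16a1 was in order in 60 pairs too, at 67.0 to 104 CPM against 32.3 to 87.8 CPM, but the difference was under 1 (0.65).

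The 6 genes that were lower in the tumours with high Mki67 had varied functions. Inhbe, which encodes the activin E subunit secreted by hepatocytes, was at 14.6 to 45.5 CPM in the high side (median 27.4) and 39.7 to 91.6 CPM in the low side (median 57.7). Only 3 of 64 pairs had the high tumour above the low one, and the difference was -1.05, or -0.74 without T2, T23 and T24. Amigo2, a cell adhesion protein, was at 2.23 to 6.91 CPM against 5.38 to 16.8 CPM, a difference of -1.21 that was -1.19 without those 3 tumours. Its overlap came from T4, T8 and T24, which lay above T11. Krt7, a keratin of bile duct cells, was at 0.0339 to 0.615 CPM against 0.443 to 3.06 CPM, a difference of -1.87. It did not stand for its list, as the 15 measured bile duct genes had a median of 0.03, with 9 positive and 6 negative differences. Csf3r, the neutrophil receptor for granulocyte colony-stimulating factor, was at 1.12 to 2.73 CPM against 2.27 to 6.59 CPM, a difference of -1.07. Miip differed by -1.24, and Hs3st6, a heparan sulfate sulfotransferase, by -1.02.

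**Figure D2:**
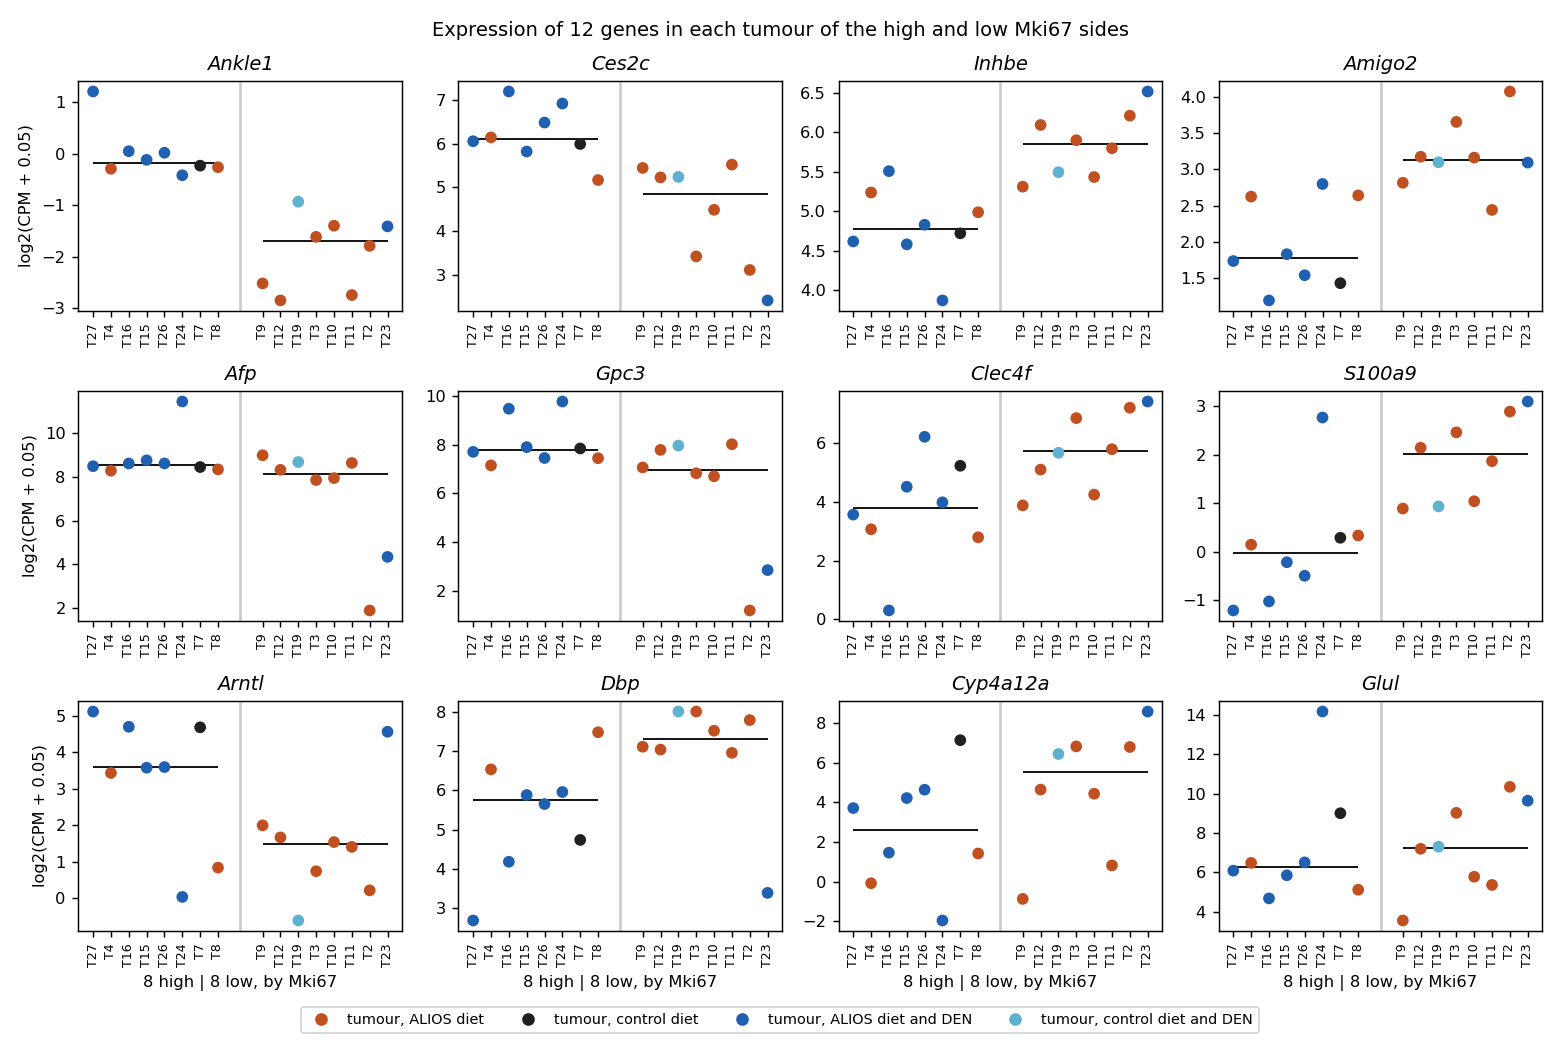
Expression of 12 genes, as log2(CPM + 0.05), in each of the 8 tumours with high Mki67 (left of the grey line) and the 8 with low Mki67 (right), in order of Mki67, with points coloured by diet and DEN and a line at each side's median. Ankle1 keeps the sides fully apart, Afp and Gpc3 are low in T2 and T23 alone, and T24 is far above the rest for Glul.

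Many of the wider differences depended on a few tumours. By size alone, 391 genes (2.58%) were at least 1 higher in the high side and 368 (2.43%) at least 1 lower, and 268 and 367 of these were off the cell cycle list. Low tumours T2 and T23 were the closest of the 16 to the mean of the non-tumour livers, at a root mean square distance of 0.771 and 0.726 on the log2 scale over 17728 genes. The other 13 tumours apart from T24 lay at 1.08 to 1.43, and T24 lay farthest at 1.67. Without T2 and T23 the number of genes at least 1 higher fell from 268 to 122, and at least 1 lower from 367 to 207. T2 alone took the first number to 145, T11 to 404 and T24 to 410, and T9 took the second to 570. The gene groups below are therefore given with all 16 tumours and, where the value moved, without these libraries.

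Alpha-fetoprotein (Afp), made by fetal liver and by many hepatocellular tumours, was at 308 to 2737 CPM in the high side (median 371) and 3.70 to 502 CPM in the low side (median 281). The 6 low tumours other than T2 (3.70) and T23 (20.3) were all at 230 CPM or more, and the difference of 1.78 was 0.48 without those tumours and 0.11 without T24 as well. The non-tumour livers were at 0.363 to 1.52 CPM, below both. Glypican 3 (Gpc3), a surface proteoglycan of fetal liver and liver cancer, behaved alike, with 142 to 869 CPM against 2.27 to 259 CPM and a difference of 2.03 that was 0.71 and then 0.47. The tetraspanin Tspan8 differed by 1.88, and by 0.32 without T2 and T23. Of 32 measured oncofetal genes, 12 were at least 1 higher and none lower with a median of 0.62, and without T2, T23 and T24 none were at least 1 higher and 1 was lower with a median of 0.12.

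T24 stood apart for the pericentral genes. Glutamine synthetase (Glul), the classical beta-catenin target of pericentral hepatocytes, was at 18608 CPM in T24 and at 25.4 to 514 CPM in the other high tumours, beside 11.6 to 1304 CPM in the low side. The Wnt feedback gene Axin2 was at 110 CPM in T24 and at most 10.2 CPM in the other 15 tumours. The median difference of 26 beta-catenin and pericentral genes was -0.23 with all tumours, 0.24 without T2 and T23, and -0.42 without T24 as well. Without T24 alone it was -1.08, with 16 of the 26 genes at least 1 lower, against 1 with all 16 tumours.

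The lists of cytochrome P450, growth hormone-driven, acute phase and amino acid catabolism genes had negative medians, which were nearer 0 without T2 and T23. Of 38 cytochrome P450 genes 10 were at least 1 lower and none higher, with a median of -0.52. Without T2 and T23 this was 3 lower and 1 higher with a median of -0.07. The median was -0.12 in tumours without DEN and -1.01 in those with DEN, where 19 genes were at least 1 lower and 3 higher. Cyp4a12a, a male-biased fatty acid hydroxylase, was at 0.207 to 141 CPM against 0.497 to 385 CPM, and Cyp7b1, an oxysterol hydroxylase of bile acid synthesis, at 1.17 to 89.1 CPM against 0.745 to 136 CPM. The sides overlapped for both, with differences of -2.14 and -1.86 that were -0.49 and -1.39 without T2, T23 and T24. In tumours without DEN the differences were -0.94 and -1.07, and in those with DEN -5.08 and -4.36. Of 30 genes with sex-biased or growth hormone-driven expression 10 were at least 1 lower and 1 higher, with a median of -0.71. This was 4 lower with a median of -0.29 without T2 and T23, and 2 lower with a median of -0.03 without the 3 tumours. The median was 0.17 in tumours without DEN and -2.02 in those with DEN. Hepcidin (Hamp), the iron hormone, was at 4.08 to 93.1 CPM against 3.48 to 593 CPM, a difference of -2.42, or -1.25 without the 3 tumours. It was -0.92 in tumours without DEN and -4.71 in those with DEN. The 28 acute phase genes had a median of -0.46 with 5 at least 1 lower, or -0.23 with 1 lower without the 3 tumours. The 39 genes of amino acid catabolism and the urea cycle had a median of -0.38 with 5 at least 1 lower, and a median of 0.07 without the 3 tumours. In tumours without DEN the acute phase median was -0.12 and the amino acid median 0.09. In those with DEN these medians were -0.78 and -0.96.

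**Figure D3:**
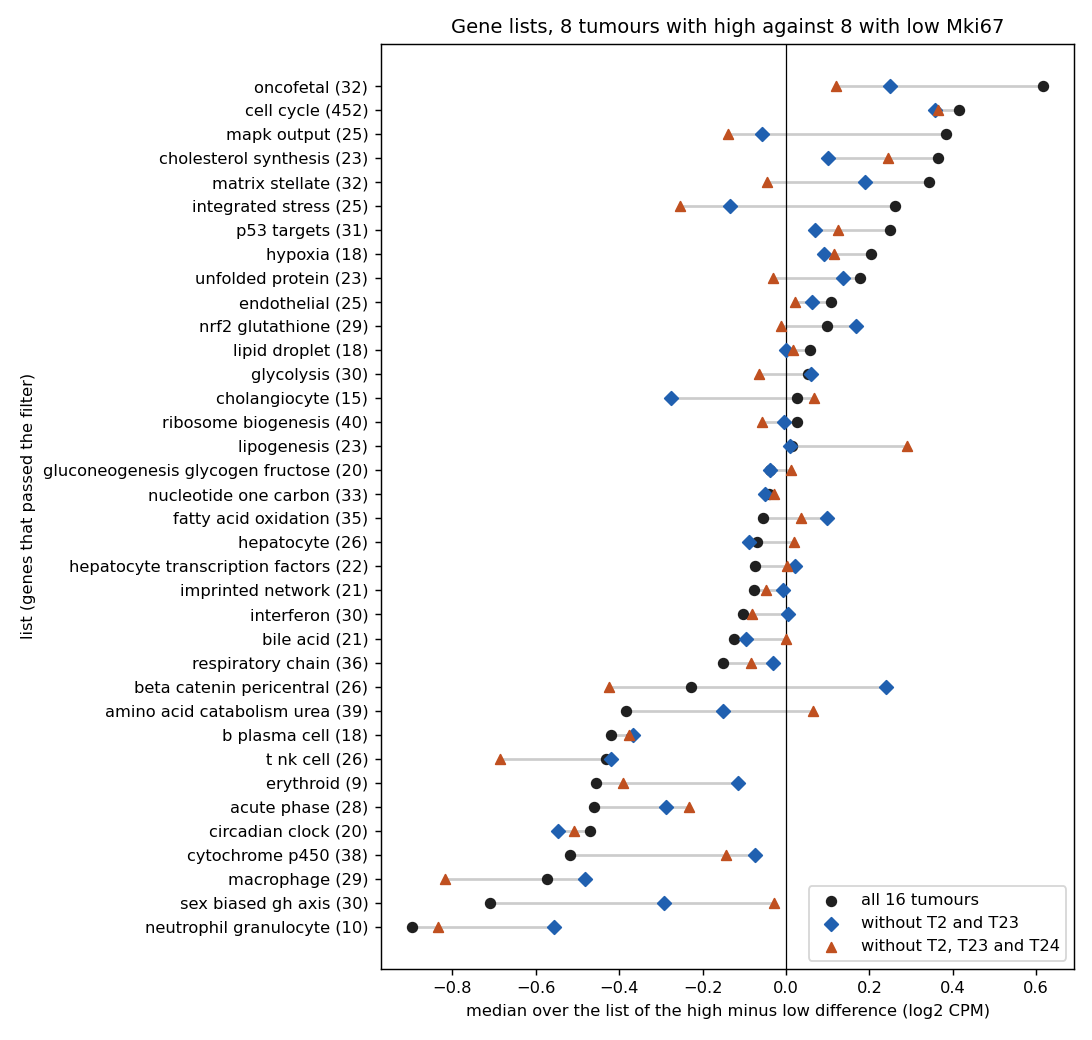
Median high minus low difference (log2 CPM) over the measured members of each gene list, with the number of members in brackets, for all 16 tumours (circles), without T2 and T23 (diamonds) and without T2, T23 and T24 (triangles). The oncofetal median moves from 0.62 to 0.12, while the macrophage median stays negative at -0.57, -0.48 and -0.82.

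Genes of resident macrophages were lower in the high side under each choice of libraries. Kupffer cells, the resident macrophages of the liver, are marked by the lectin Clec4f, the complement receptor Vsig4, the phosphatidylserine receptor Timd4 and the secreted scavenger protein Cd5l. Clec4f was at 1.19 to 73.6 CPM in the high side (median 13.7) and 14.6 to 169 CPM in the low side (median 52.7), and the sides overlapped with 11 of 64 pairs in the other order. The difference was -2.05, or -1.53 without T2 and T23, which were the highest of all at 146 and 169 CPM. It was -1.80 in tumours without DEN and -2.81 in those with DEN. Vsig4 differed by -1.75 and -1.31, Timd4 by -1.56 and -1.07, and Cd5l by -1.59 and -1.13. The wider macrophage marker Adgre1 (F4/80) differed by -0.64. Of 29 measured macrophage genes 23 had a negative difference, 6 were at least 1 lower and none higher, with a median of -0.57. The median was -1.15 in tumours without DEN and -0.22 in those with DEN. The summed level of the 29 genes was 736 to 2064 CPM in the high side and 867 to 1820 CPM in the low side, with 30 of 64 pairs higher in the high side and no gap between the ranges. In bulk tissue, fewer cells of a type and less RNA per cell cannot be told apart.

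Genes of other leukocytes had negative medians too. The neutrophil alarmin subunit S100a9 was at 0.381 to 6.76 CPM in the high side (median 0.932) and 1.80 to 8.51 CPM in the low side (median 3.98). T24 was the only high tumour above 1.21 CPM, and without it all 7 high tumours lay below all 8 low ones, with a difference of -2.20 against -1.83 with it. Its partner S100a8 differed by -1.67. Of 20 neutrophil and granulocyte genes 10 passed the filter, 9 of them with a negative difference and 4 at least 1 lower, with a median of -0.90 that was -0.56, with 2 at least 1 lower, without T2 and T23. Of 30 T and NK cell genes 26 passed, with a median of -0.43 and 3 at least 1 lower. Without T2, T23 and T24 this was -0.69 and 8. The co-stimulator Icos of activated T cells was at 0.0356 to 0.961 CPM against 0.280 to 1.75 CPM, a difference of -1.43. Summed levels overlapped for both lists, at 248 to 708 against 163 to 877 CPM for the neutrophil list and 14.5 to 116 against 18.48 to 68.3 CPM for the T and NK list. The sum of the 20 neutrophil genes was not lower in the high side, with medians of 553 and 538 CPM. The high tumour was above in 33 of 64 pairs for that sum and in 25 for the T and NK sum.

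Markers of further cell types were checked in the same way. The summed hepatocyte markers were at 144229 to 299053 CPM in the high side and 145929 to 303761 in the low side. The 22 hepatocyte transcription factors summed to 1655 to 2107 against 1943 to 3013 CPM, with 4 of 64 pairs higher in the high side. Their median difference was -0.07, with 0 at least 1 higher and 0 at least 1 lower. The 25 endothelial genes had a median of 0.11, or 0.02 without T2, T23 and T24, and summed to 415 to 737 against 467 to 794 CPM. The 32 matrix and stellate cell genes had a median of 0.34, or -0.04 without T2, T23 and T24, and the smooth muscle actin gene Acta2 differed by 1.33 and 0.19. In tumours without DEN Acta2 differed by 0.67, and in those with DEN by 2.74. The fat cell hormone Adipoq was at 0 in 13 of 16 tumours and the kidney gene Umod in 14 of 16. The acinar gene Cela1 was at 41.8 to 234 CPM against 33.0 to 65.0 CPM. All 17 acinar markers summed to 969 CPM in T24, beside a median of 69.2 CPM in the high side. Their sum was 38.6 to 65.8 CPM in the low side and at most 87.7 CPM in the livers, so the library of T24 also held pancreas transcripts. Their part in the results was not tested.

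Clock genes differed between the sides in antiphase. Arntl (Bmal1), the core activator, was at 0.979 to 34.5 CPM in the high side (median 11.9) and 0.608 to 23.5 CPM in the low side (median 2.73), a difference of 1.80. The output gene Dbp, which peaks when Arntl is low, was at 6.41 to 179 CPM (median 54.6) against 10.5 to 257 CPM (median 161), a difference of -1.59. The exceptions were low tumour T23 (Arntl 23.5 and Dbp 10.5 CPM) and high tumours T24 and T8 (Arntl 0.979 and 1.74 CPM). Without T2 and T23 the differences were 2.13 and -2.04. Npas2, which can replace Clock, differed by 1.89, while Ciart differed by -1.99, Per3 by -1.19 and Tef by -1.19. Of 20 clock genes 2 were at least 1 higher and 5 at least 1 lower. The hour of tissue collection was not given in the labels, and its part in these differences was not tested.

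Several programmes often linked to growth did not separate the sides. The 40 ribosome biogenesis genes had a median of 0.03, the 33 nucleotide and one-carbon genes -0.04, the 18 hypoxia genes 0.20 and the 23 unfolded protein response genes 0.18, with no member of these at least 1 higher or lower. Without T2, T23 and T24 these medians were -0.06, -0.03, 0.11 and -0.03, again with no such member. The 30 glycolysis genes had a median of 0.05 and the 23 lipogenesis genes 0.02, or -0.06 and 0.29 without those 3 tumours. Of 23 cholesterol synthesis genes 21 had a positive difference with a median of 0.36, or 0.10 without T2 and T23. The isomerase Idi1 was at 27.6 to 183 CPM against 12.2 to 133 CPM, a difference of 1.30. The 31 targets of p53 had a median of 0.25, and the cell cycle inhibitor Cdkn1a (p21) was at 55.6 to 130 CPM against 5.06 to 181 CPM, a difference of 0.94 that was 0.45 without T2 and T23. Of 25 MAPK output genes 21 had a positive difference, with a median of 0.38, or -0.14 without T2, T23 and T24. In tumours with DEN their median was 0.91. There 4 hypoxia, 2 nucleotide and one-carbon and 1 unfolded protein response genes were at least 1 higher, and 1 nucleotide and one-carbon gene was lower. Over all 15155 genes, 985 were at least 1 higher there and 1149 at least 1 lower. The counts of 1 and 2 therefore do not set those lists apart from other genes.

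The relation of genes to Mki67 was tested in the 23 non-tumour livers, which the choice of tumours did not use. The slope of log2 expression on log2 Mki67 was fitted with diet as a term by the quasi-likelihood test of edgeR over 13722 genes. With rising Mki67, 527 genes rose (3.84%) and 109 fell (0.794%), and 83 of those that rose were cell cycle genes. Top2a had a slope of 1.04 ± 0.13 (SE, adjusted p = 0.000133). Among macrophage genes 14 of 29 rose and none fell, among them Ms4a7 with 1.17 ± 0.16 (adjusted p = 0.000307), Adgre1 with 0.49 ± 0.08 (adjusted p = 0.00154), the lipid-associated macrophage receptor Trem2 with 1.09 ± 0.20 (adjusted p = 0.00371) and Gpnmb with 2.06 ± 0.37 (adjusted p = 0.0032). Clec4f was not called (0.18 ± 0.08, adjusted p = 0.24). In these livers the macrophage genes with adjusted p below the threshold thus had positive slopes, whereas most of the list had negative differences between the tumour sides. Whether the tumours and livers differed was not tested.

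Some genes of other groups rose with Mki67 in liver. Of 29 oncofetal genes 10 rose, with Tspan8 at 0.96 ± 0.24 (adjusted p = 0.023) and Golm1 at 0.53 ± 0.10 (adjusted p = 0.00341), while Afp was at 0.08 ± 0.12 (adjusted p = 0.781). Of 30 matrix genes 8 rose, and the collagen gene Col1a1 had a slope of 1.47 ± 0.29 (adjusted p = 0.00524). Cdkn1a rose with 0.88 ± 0.16 (adjusted p = 0.00341), and Pck1, the gluconeogenic carboxykinase, fell with -0.42 ± 0.10 (adjusted p = 0.018). None of 9 neutrophil genes and none of 19 clock genes was called. Of the genes off the cell cycle list that were higher in the tumours of the high side by the 60-pair rule, Slfn9, a schlafen family gene, had a slope of 0.55 ± 0.14 (adjusted p = 0.0268). Inhbe (0.08 ± 0.09, adjusted p = 0.673) and Amigo2 (-0.01 ± 0.09, adjusted p = 0.955) had slopes near 0. Leaving out N19 and N17, the livers farthest from the median of Mki67, left 33 genes that rose and 1 that fell of 13821 tested. Calls went from 14 to 4 for macrophage genes, from 10 to 1 for oncofetal genes and from 8 to 4 for matrix genes. Of the genes named here, Top2a (1.06, adjusted p = 0.0161), Ms4a7 (1.23, adjusted p = 0.0172), Gpnmb (2.64, adjusted p = 0.0116), Trem2 (1.24, adjusted p = 0.0233) and Col1a1 (1.65, adjusted p = 0.0208) were still called. Adgre1 (adjusted p = 0.255), Tspan8 (0.14), Golm1 (0.138), Cdkn1a (0.163), Pck1 (0.378) and Slfn9 (0.749) were not. In the 12 livers on control diet alone 3 of 12286 genes rose and none of the macrophage genes was called. In the 11 on ALIOS 569 of 12537 genes rose. Among these were 17, 6 and 1 genes of the macrophage, oncofetal and matrix lists, which held 29, 40 and 32 genes.

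**Figure D4:**
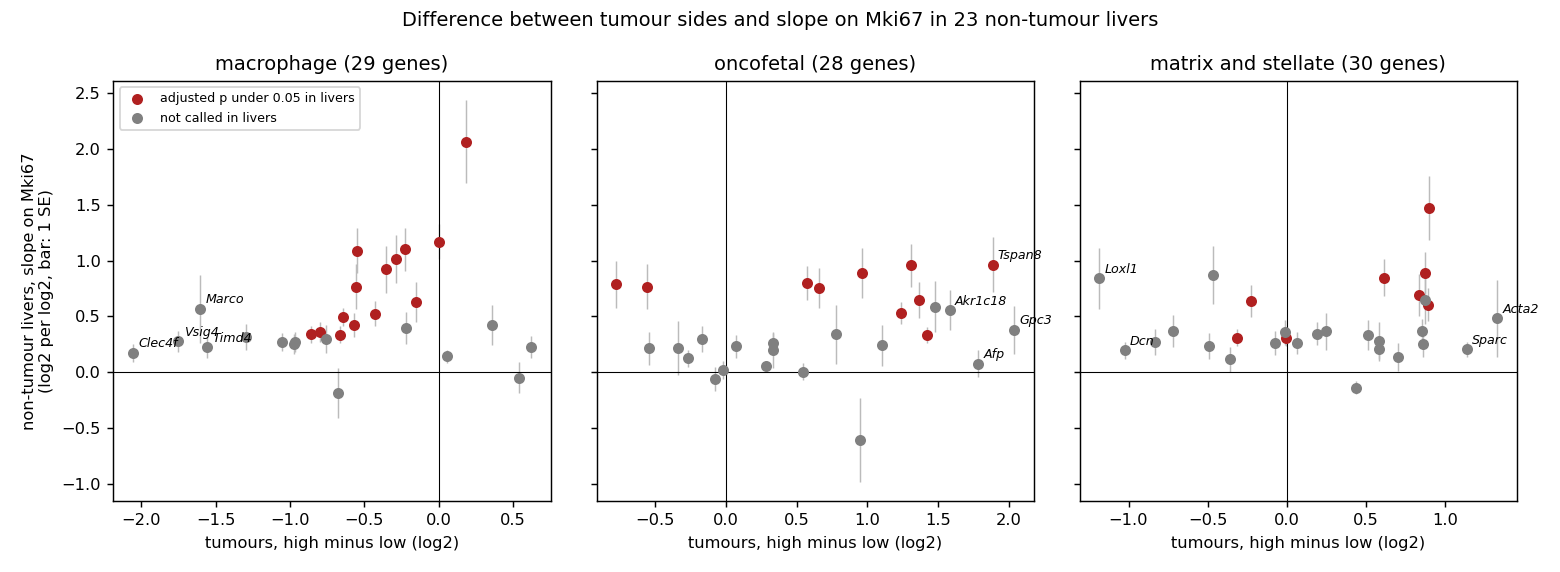
High minus low difference between the tumour sides (log2, x axis) against the slope on Mki67 in 23 non-tumour livers (log2 per log2, y axis, bars 1 SE) for the macrophage, oncofetal and matrix genes, with red points for adjusted p under 0.05 in liver. Called macrophage genes have positive slopes in liver, while Clec4f, at a tumour difference of -2.05, is not called.

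In the 10 middle tumours, also unused by the choice, no gene passed in the fit on Mki67 with DEN as a term (0% higher and 0% lower of 14896 genes by edgeR, with 1339 at an unadjusted p under 0.05). Mki67 itself, used as the predictor, had a slope of 1.01 ± 0.13 and an adjusted p of 0.278. On simulated counts the fit found 49% of genes given a slope of 2 on the log2 scale. The simulation gave all genes the same variability, not fitted to these data, so this share does not measure the power here.

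The labelled contrasts that the split mixes gave few calls for any gene. Between 8 DEN and 12 spontaneous tumours on ALIOS, edgeR called 0% higher and 0% lower of 14844 genes, with 1078 at an unadjusted p under 0.05, while DESeq2 called 51 higher and 24 lower, 18 of the 51 being cell cycle genes. Ankle1 was higher by 1.26 ± 0.45 (adjusted p = 0.395) and Arntl by 2.40 ± 0.52 (adjusted p = 0.228), while Clec4f was at 0.09 ± 0.71 and Inhbe at -0.16 ± 0.31 (adjusted p = 1 for both). Between 8 DEN tumours on ALIOS and 5 on control diet, edgeR called 0% higher and 2 genes lower (0.0134% of 14943), with 1272 at an unadjusted p under 0.05. These were the kinase gene Sik1 (-0.85 ± 0.12, adjusted p = 0.0409) and the nicotinamide riboside kinase gene Nmrk1 (-1.41 ± 0.18, adjusted p = 0.0342), named after their values were seen. DESeq2 called 70 higher and 85 lower there. With 1 tumour left out, edgeR called 0 to 7 higher and 0 to 14 lower, the most without T22 (5 and 14) and T24 (7 and 7), and 0 of both without T15, T16, T17, T18, T19, T21, T23 or T27.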

How the data were processed

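Deposited values were raw read counts per gene, which the authors made from stranded, paired-end mRNA libraries with STAR on mm10 and HTSeq with Gencode M6. The versions and strand option were not given in the sources used here. The table held 45792 rows and 50 libraries; 0 columns were left unmapped. Symbols came from the file for 23214 rows and from Gencode M21 for 22132.

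Totals of the 50 libraries ran from 23798251 to 45751398 counts. No libraries agreed within sampling noise. Tumours were ranked by Mki67 count over total. Differences between sides used log2 CPM with TMM factors and a prior count of 2 (edgeR 4.0.16, R 4.3.3), after edgeR's filter on low counts. Mki67 was compared between labelled groups by exact permutation tests. Slopes and contrasts used the quasi-likelihood test of edgeR, adjusted by Benjamini-Hochberg over all genes tested, with DESeq2 1.42.0 as an alternative. The steps were tested on simulated data, where 100% of 200 genes with a slope of 1 were found in liver, 100% of those changed by 2 in the DEN contrast and 98% in the diet contrast. The simulated counts gave all genes the same variability, which was not fitted to these data. The shares found therefore check the steps and do not measure the power in these tumours and livers.

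Members, 39 gene lists and rules were chosen with earlier results of these data known. The rule took up to 3 genes per list with the largest difference and separated genes off the cell cycle list at 1 CPM or more; other names are said to be chosen later or stand as markers of their list. Alternatives were other rankings, side sizes, scalings, filters, DEN strata and left-out libraries. Promoters came from RefSeq (GRCm38.p6).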

Additional observations from a re-analysis of the deposited data

Results flagged for a closer look

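Of 72 sets of 8 tumours, each the summed level of 1 gene list on 1 side, 12 had an end value set far apart from the others, and chance alone flags about 1 in 20. In the high side 11 of these were T24, the DEN tumour with high Glul. Its summed level was the lowest of the 8 for acute phase genes (8276 CPM), hepatocyte markers (144200 CPM) and lipogenesis genes (7743 CPM). It was the highest for beta-catenin and pericentral genes (39590 CPM), cytochrome P450 genes (23550 CPM), NRF2 and glutathione genes (13660 CPM), oncofetal genes (9333 CPM), respiratory chain genes (7979 CPM), glycolysis genes (6374 CPM), ribosome biogenesis genes (1794 CPM) and erythroid genes (748.4 CPM). In the low side, T23 was the lowest for clock genes (623.4 CPM). The 72 sets did not cover all 39 lists. The acinar markers, at 969 CPM in T24 beside a high side median of 69.2 CPM, were not among those flagged. Tumour T1, which was not ranked, held kidney markers at 48660 CPM, and its other genes were not analysed here.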

How the results depend on the processing

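Genes off the cell cycle list that kept the sides apart numbered 2 higher and 0 lower. They numbered 4 and 0 with ranking on TMM-scaled CPM, 17 and 38 with 6 tumours a side, 1 and 0 with 10 a side, and 2 and 2 with ranking by Top2a. Without T24 they numbered 8 and 1 (S100a9), in tumours without DEN (3 against 6) 51 and 98, and in tumours with DEN (5 against 2) 354 and 732. Settings chosen after seeing the data gave 5 and 0 without T2 and T23, 10 and 2 without T2, T23 and T24, and 15 and 6 with at least 60 of 64 pairs. Leaving out 1 tumour gave 2 to 8 and 0 to 2. Genes at least 1 higher (268) and at least 1 lower (367) numbered 592 and 921 with 6 a side and 986 and 1409 with DEN. The higher ones numbered 410 without T24, 122 without T2 and T23 and 165 without T2, T23 and T24, and the lower ones 207 without T2 and T23. Leaving out 1 tumour gave 145 (T2) to 410 (T24) higher, with 404 without T11, and 269 to 570 lower (T9). The Mki67 difference by DEN was 0.76 to 1.24 and that by diet 0.62 to 1.10 with 1 tumour left out. In liver, genes that rose or fell numbered 1645 and 1280 without the diet term and 33 and 1 without N19 and N17. DESeq2 gave 212 that fell, ALIOS livers alone 68, and control diet livers alone 3 that rose and 0 that fell (the diet-specific fits were chosen after seeing the data). DESeq2 gave 51 and 24 in the DEN contrast and 70 and 85 in the diet contrast, which had 1 lower without the filter, and 0 to 7 higher and 0 to 14 lower with 1 tumour left out. Directions turned for Gls2 (0.088), Igkc (0.24) and Cyp2f2 (0.37) in tumours without DEN, and for the Slfn9 slope (-0.14) in control diet livers. Beyond what the smaller sides and fewer libraries bring, the cause was not tested. No paired analysis was possible because the tumours of the sides carry different numbers, and the labels do not say that tumour and liver numbers mark 1 mouse. Genes below about 1 CPM, such as Efcab11 and, in the low side, Ankle1, rest on few counts.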
